A study of Mus musculus with 7 samples.

Results

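The 9 genes described here encode channels of pacemaking and burst firing: Hcn2, Hcn3 and Hcn4 of the HCN channels, Cacna1g, Cacna1h and Cacna1i of the T-type calcium channels, and Nalcn, Unc79 and Unc80 of the sodium leak channel complex. They were taken by symbol, and all 9 were found among 55384 genes listed and passed the filter on low counts, which left 18282 genes tested. The HCN values are for 3 HCN genes and do not describe all HCN mRNA. RNA on HA-tagged ribosomes was sequenced from the anteroventral periventricular nucleus (AVPV) of female mice of the genotype Kiss1Cre+/Rpl22HA+/+ on a C57BL/6 background. In this RiboTag design the ribosomal protein RPL22 is tagged where the Kiss1 promoter drives Cre recombinase, so the tag marks kisspeptin cells.

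The females of the 4 GDX libraries were ovariectomized and had no estradiol, and those of the 3 E2 libraries were treated with estradiol. The labels do not state whether the E2 females were ovariectomized too. Each library was a pool of micropunches from 4 brains, so the spread between libraries is a spread between pools. The labels used here give no age, estradiol dose or duration of treatment, and no untagged or input RNA was analysed here. Totals lay between 29207544 and 36213127 expected counts per library. Each of the 9 genes had between 617 and 9657 counts in every library.

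Markers of the labelled cell type were looked up, and without input RNA they cannot show enrichment. All 8 kisspeptin-cell markers were detected. Of these, 4 rose and 1, Slc18a2, fell, while 2.55% of all genes tested rose and 1.33% fell. Kiss1 was at 66.5 ± 31.7 CPM (SD, n = 4) in GDX and 415 ± 60.8 CPM (SD, n = 3) in E2. The 11 markers of neighbouring neurons summed to 152 to 285 CPM in GDX and 193 to 211 CPM in E2, and 1 rose. The marker that rose is not named here. Oxt, which had the highest mean of them in both groups and was not called, was at 75.8 ± 41 CPM (SD, n = 4) in GDX and 59.2 ± 16.5 CPM (SD, n = 3) in E2. The 8 pan-neuronal markers summed to 3920 to 4050 CPM in GDX and 4120 to 4300 CPM in E2, without overlap. Of these, 1 rose and none fell, with a median log2 fold change of 0.03. Markers of glia and vessels were present as well, none of them at 0 in all libraries. The 7 astrocyte markers summed to 1160 to 3050 CPM in GDX and 902 to 1060 CPM in E2, and the 6 endothelial and mural markers to 214 to 561 and 115 to 194 CPM. Oligodendrocyte markers (2800 to 5810 and 2590 to 3110 CPM) and microglial markers (59.6 to 77.7 and 62.8 to 84.9 CPM) overlapped between the groups. The 5 ependymal markers summed to 54.8 to 105 CPM in GDX and 26.4 to 54.1 CPM in E2, without overlap, and 1 of them, Rarres2, fell (edgeR adjusted p = 0.0356), named here after its value was seen. The part of the ependymal markers in the results was not tested. A mean of log2 levels over 26 non-neuronal markers, which leave out the ependymal ones, was 5.7 to 6.45 in GDX and 5.39 to 5.66 in E2, with no overlap. In such bulk RNA a change in the number of tagged cells and a change in RNA per cell cannot be told apart.

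HCN channels are cation channels that open when the membrane hyperpolarizes and carry the inward current that brings a neuron back toward threshold, and cyclic AMP makes several of them open more readily. T-type calcium channels activate at low voltage, recover during a hyperpolarization and then produce the rebound depolarization on which a burst of spikes rides. NALCN passes a steady sodium leak that helps to set the resting potential, and it works in a complex with UNC79 and UNC80. AVPV kisspeptin neurons are known for burst and rebound firing and for mediating the positive feedback of estradiol on the preovulatory surge.

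The promoters of Hcn4 and Hcn2 are shown because both belong to one family, and Hcn4 rose with estradiol while Hcn2 did not pass the test. Sequences are those of RefSeq on GRCm38.p6, 5′ to 3′ on the gene's strand, and cover the 250 bases before the RefSeq start. Capitals mark the core motif of the estrogen response element, GGTCA, and GC boxes, GGGCGG, found on either strand. The Hcn4 window lies at chr9:58822699-58822948 (+ strand) and the Hcn2 window at chr10:79716384-79716633 (+ strand).
Hcn4: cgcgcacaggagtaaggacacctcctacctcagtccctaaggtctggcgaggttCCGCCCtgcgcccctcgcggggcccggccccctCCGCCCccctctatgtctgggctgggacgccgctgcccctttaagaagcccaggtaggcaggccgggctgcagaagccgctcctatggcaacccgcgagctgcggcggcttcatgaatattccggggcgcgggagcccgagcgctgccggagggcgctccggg
Hcn2: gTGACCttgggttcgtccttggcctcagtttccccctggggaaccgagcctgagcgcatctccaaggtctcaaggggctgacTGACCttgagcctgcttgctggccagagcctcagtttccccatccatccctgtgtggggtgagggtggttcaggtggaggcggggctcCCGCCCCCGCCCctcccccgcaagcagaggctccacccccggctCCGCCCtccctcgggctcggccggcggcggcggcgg
The Hcn4 window held 2 GC boxes and no core motif, and the Hcn2 window held 3 GC boxes and 2 core motifs. Of 32851 RefSeq promoters searched over the same length, 32.7% held a GC box and 35.2% a core motif. The full estrogen response element, GGTCANNNTGACC, which contains the core motif on both strands, was in neither window and in 0.0639% of all promoters. The promoter table used here also held windows for Unc80, Cacna1i, Nalcn and Unc79, and none of these 6 windows held the full element. Promoters of Hcn3, Cacna1g and Cacna1h were not searched. The core motif occurred once each in those of Unc80 and Cacna1i and not in those of Nalcn and Unc79. GC content was 71.2% for Hcn4 and 70.4% for Hcn2, against a median of 52.4%. The RefSeq start of Hcn4 lies 463 bp upstream of the start in GENCODE vM21. These matches describe letters in a window, and no binding was measured.

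With estradiol, 2 of the 9 genes rose and none fell. Hcn4 was 1.66-fold and Cacna1g 1.52-fold higher in E2. The other 7 did not pass, and their log2 fold changes lay between −0.21 for Nalcn and 0.38 for Cacna1h. A gene was called changed at a Benjamini-Hochberg adjusted p under 0.05 in the edgeR quasi-likelihood test. That held for 3.88% of all genes tested, with 2.55% higher and 1.33% lower. The CPM values (counts scaled to each library's total with TMM factors) of the groups did not overlap for Hcn4 and Cacna1g, and did not overlap for 16.5% of all genes tested. The median log2 fold change was 0.05 over the HCN genes, 0.38 over the T-type genes and 0.03 over the sodium leak genes, against 0 over all genes tested.

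**Figure D1:**
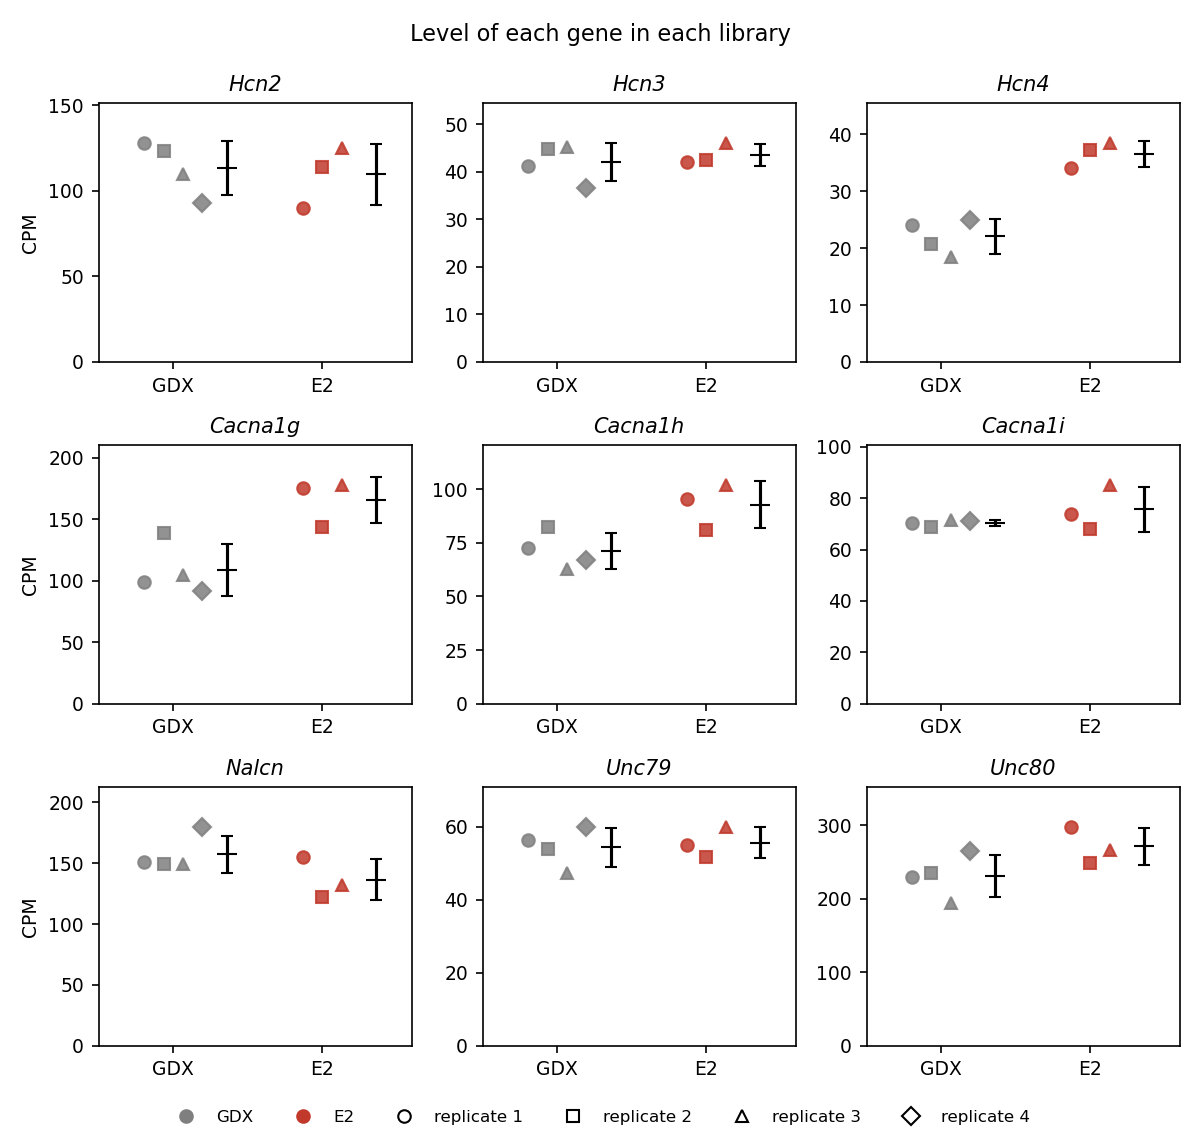
CPM of the 9 genes in each library (y axis, from 0, with its own scale per gene), GDX in grey and E2 in red, with the symbol giving the replicate and the black bar the mean ± SD. The E2 libraries lie above every GDX library for Hcn4 and Cacna1g, and the groups overlap for the other 7 genes.

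Among the HCN genes, Hcn4, whose channel is the slow, cAMP-sensitive type known from the sinoatrial node, was the one that rose. Its level was 24.1, 20.7, 18.4 and 25 CPM in GDX replicates 1 to 4 and 34.1, 37.2 and 38.5 CPM in E2 replicates 1 to 3. The lowest E2 library was above the highest GDX library, in replicate 4. The group means were 22 ± 3.06 CPM in GDX (SD, n = 4) and 36.6 ± 2.28 CPM in E2 (SD, n = 3), which gave a log2 fold change of 0.73 ± 0.12 (SE; 95% interval 0.47 to 1, edgeR adjusted p = 0.00453). The Hcn4 gene (ENSMUSG00000032338) lies on chromosome 9 from 58823412 to 58863175 on the + strand of GRCm38, with 8 exons in its only annotated transcript and no exon sequence shared with another gene. Its call was kept in all 18 alternative settings, with log2 fold changes of 0.66 to 1.02 and adjusted p values up to 0.0363.

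Hcn2, which encodes a widely expressed cAMP-sensitive HCN channel, held 128, 123, 110 and 92.7 CPM in GDX and 90.1, 114 and 125 CPM in E2. The groups overlapped over almost their whole range, and GDX replicate 4 and E2 replicate 1 were the low libraries of their groups. The means were 113 ± 15.7 and 110 ± 18 CPM (SD, n = 4 and 3), and the log2 fold change was −0.05 with a 95% interval of −0.34 to 0.25 (edgeR adjusted p = 0.912). Hcn2 lies on chromosome 10 from 79716634 to 79736108 on the + strand and has 8 exons in its longest coding transcript.

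Hcn3 encodes an HCN channel with little response to cAMP. It held 41.3, 44.9, 45.3 and 36.6 CPM in GDX and 42, 42.5 and 46.1 CPM in E2, again with overlap between the groups. Its log2 fold change was 0.05, with a 95% interval of −0.17 to 0.27 (edgeR adjusted p = 0.867). The Hcn3 gene, on chromosome 3 from 89146074 to 89160196 on the − strand, shares 711 bp, or 17.1% of its exon sequence, with Pklr on the opposite strand. The libraries carried no strand, so these reads cannot be assigned with certainty, but Pklr was at 0.132 to 0.9 CPM in the 7 libraries. The deposited Hcn3 count was fractional in all 7 libraries.

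Cacna1g encodes Cav3.1, a T-type channel known for rebound bursts in thalamic relay cells, and it rose. Its level was 98.8, 139, 105 and 92 CPM in GDX and 175, 144 and 178 CPM in E2. The groups did not overlap, but only 1 pair of libraries came close: GDX replicate 2 and E2 replicate 2. The means were 109 ± 21 and 166 ± 18.5 CPM (SD, n = 4 and 3), and the log2 fold change was 0.61 ± 0.14 (SE; 95% interval 0.3 to 0.92, edgeR adjusted p = 0.0392). The Cacna1g gene (ENSMUSG00000020866) lies on chromosome 11 from 94408391 to 94474198 on the − strand, with 38 exons in its longest coding transcript and no exon sequence shared with another gene.

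The Cacna1g call was lost in 10 of 18 alternative settings, while the direction held in all of them (log2 fold change 0.39 to 0.75). The edgeR adjusted p was 0.115 without GDX replicate 1 and 0.0968 without GDX replicate 3. It was 0.189, 0.0589 and 0.159 without E2 replicates 1, 2 and 3, and 0.0858 without GDX replicates 1 and 4 together. It was 0.0511 with upper-quartile factors and 0.0643 with library sizes alone. With the non-neuronal marker score as a covariate, the log2 fold change was 0.39 (adjusted p = 0.537), against 1.02 (adjusted p = 0.0031) for Hcn4 in the same fit. That score did not overlap between the groups, so it and the treatment cannot be told apart.

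Cacna1h encodes Cav3.2, a T-type channel prominent in sensory neurons. Its level was 72.7, 82.4, 62.9 and 66.9 CPM in GDX and 95.5, 80.8 and 102 CPM in E2. E2 replicates 1 and 3 were above all GDX libraries, and E2 replicate 2 was below GDX replicate 2. The log2 fold change of 0.38 ± 0.11 (SE; 95% interval 0.14 to 0.62) did not pass (edgeR adjusted p = 0.0877). It passed without a low-count filter (adjusted p = 0.00348), in the DESeq2 Wald test (0.0314) and without GDX replicate 2 (0.047). Cacna1h (chromosome 17, 25374285 to 25433783, − strand) shares 158 bp with Tpsg1 on the opposite strand, and Tpsg1 was at 0.308 to 0.771 CPM.

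Cacna1i encodes Cav3.3, the T-type channel with the slowest kinetics. Its level was 70.3, 68.6, 71.6 and 71 CPM in GDX and 73.9, 67.8 and 85.2 CPM in E2. The GDX libraries varied by only 1.8% (SD over mean), and E2 replicate 3 was the highest of all 7. The log2 fold change was 0.1, with a 95% interval of −0.09 to 0.3 (edgeR adjusted p = 0.627). Cacna1i lies on chromosome 15 from 80287238 to 80398279 on the + strand.

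**Figure D2:**
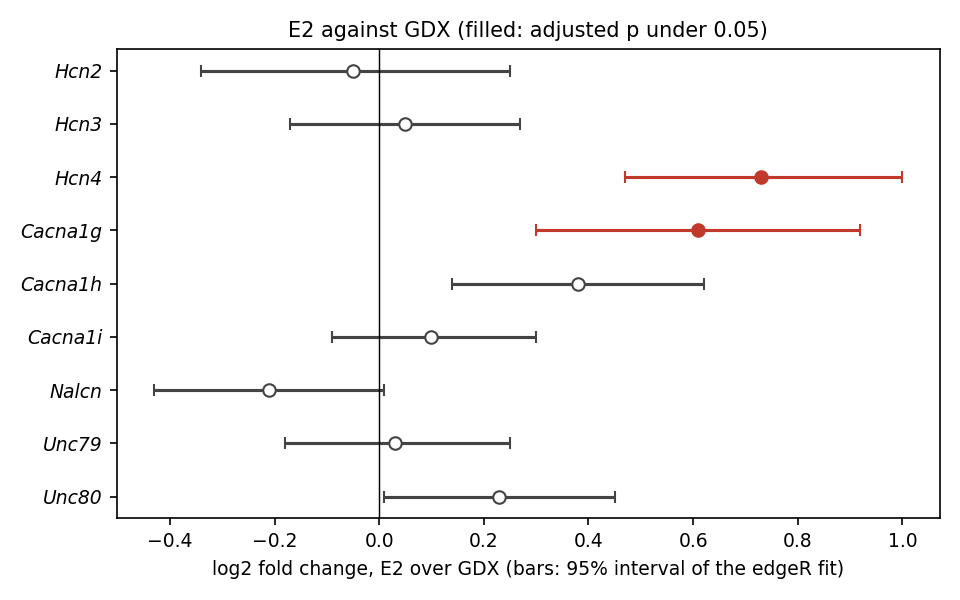
Log2 fold change of each gene, E2 over GDX (x axis), with the 95% interval computed from the edgeR fit, filled in red where the adjusted p over all genes was under 0.05. Hcn4 (0.73) and Cacna1g (0.61) are filled, and the intervals of Cacna1h and Unc80 lie above 0 without passing the adjustment.

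None of the 3 sodium leak genes passed. Nalcn, the pore of the complex, held 151, 149, 149 and 180 CPM in GDX and 155, 122 and 132 CPM in E2. GDX replicate 4 stood above the rest, and E2 replicate 1 lay within the GDX range. The log2 fold change of −0.21 had a 95% interval of −0.43 to 0.01 (edgeR adjusted p = 0.331). Nalcn spans chromosome 14 from 123276634 to 123627144 on the − strand.

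Unc80, which encodes the large scaffold that links NALCN to UNC79, held 230, 235, 194 and 265 CPM in GDX and 298, 249 and 266 CPM in E2. E2 replicates 1 and 3 were above all GDX libraries, although E2 replicate 3 only just exceeded GDX replicate 4. The log2 fold change of 0.23 (95% interval 0.01 to 0.45) did not pass (edgeR adjusted p = 0.281). Unc79, the other large auxiliary subunit, held 56.3, 53.9, 47.3 and 59.9 CPM in GDX and 55.1, 51.7 and 60 CPM in E2. The groups overlapped throughout, and the log2 fold change was 0.03 with a 95% interval of −0.18 to 0.25 (edgeR adjusted p = 0.913). Unc80 lies on chromosome 1 from 66468367 to 66699148 and Unc79 on chromosome 12 from 102948859 to 103184065, both on the + strand. Across the 18 alternative settings none of the 3 genes was called.

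To compare levels between genes, CPM was divided by the length in kb of the longest coding transcript of each gene, from 3.195 kb for Hcn2 to 13.613 kb for Unc80. Over the 7 libraries, the mean was highest for Hcn2 at 35 ± 4.79 CPM per kb (SD), followed by Nalcn (20.8 ± 2.6), Unc80 (18.2 ± 2.4), Cacna1g (15.9 ± 4.23) and Hcn3 (10.7 ± 0.807). Below these came Cacna1h (9.78 ± 1.76), Cacna1i (7.42 ± 0.604), Unc79 (6.19 ± 0.511) and Hcn4 (4.62 ± 1.34). In CPM per kb, Hcn2 was at percentile 86.3 and Hcn4 at percentile 39.4 of 15220 tested genes with a coding transcript. Of the 8 neighbouring pairs in this order, Hcn2 over Nalcn and Cacna1i over Unc79 were those whose ranges over the libraries did not overlap. Nalcn was above Unc80 in 4 of 4 GDX and 0 of 3 E2 libraries. Hcn3 was above Cacna1h in 4 of 4 GDX and 1 of 3 E2 libraries. With this length, Hcn4 was the lowest in every GDX library and passed Unc79 in 1 E2 library. The order and the percentiles were not repeated with other lengths and can change with them. Hcn4 is 6.118 kb long here and 3.603 kb in coding length, while Unc79 is 8.874 and 7.962 kb.

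Within each class, shares were taken of the summed CPM per kb. Of the 3 HCN genes, Hcn2 held the largest share in every library, 68.7% to 73.7% in GDX and 63.7% to 68.8% in E2. Hcn4 held 7.27%, 6.37%, 6.17% and 9.66% in GDX and 12.6%, 11.6% and 11% in E2, with no overlap. The ratio of Hcn2 to Hcn4 in CPM per kb was therefore lower in each E2 library (5.06 to 6.23) than in any GDX library, the lowest of which was GDX replicate 4 at 7.11. The 3 HCN genes summed to 49.6 ± 5.44 CPM per kb in GDX and 51.2 ± 6.46 in E2 (SD, n = 4 and 3), and the groups overlapped. Hcn4 thus rose with no separation of the sum, in which Hcn2 weighs most.

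Of the T-type genes, Cacna1g held the largest share in every library. The share was 42.4%, 49.4%, 45.6% and 41.7% in GDX and 52.1%, 50.7% and 50.1% in E2. Cacna1h held 27.8% to 31.8% in GDX and 28.9% to 29.3% in E2, and Cacna1i held 20.9% to 27.5% and 18.9% to 20.6%. The shares of Cacna1g and Cacna1i did not overlap between the groups, though GDX replicate 2 lay near the E2 libraries for both. The summed level of the 3 genes was 27.8, 33.6, 27.5 and 26.4 CPM per kb in GDX and 40, 34 and 42.3 in E2. These sums did not overlap, but E2 replicate 2 and GDX replicate 2 were close to each other.

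**Figure D3:**
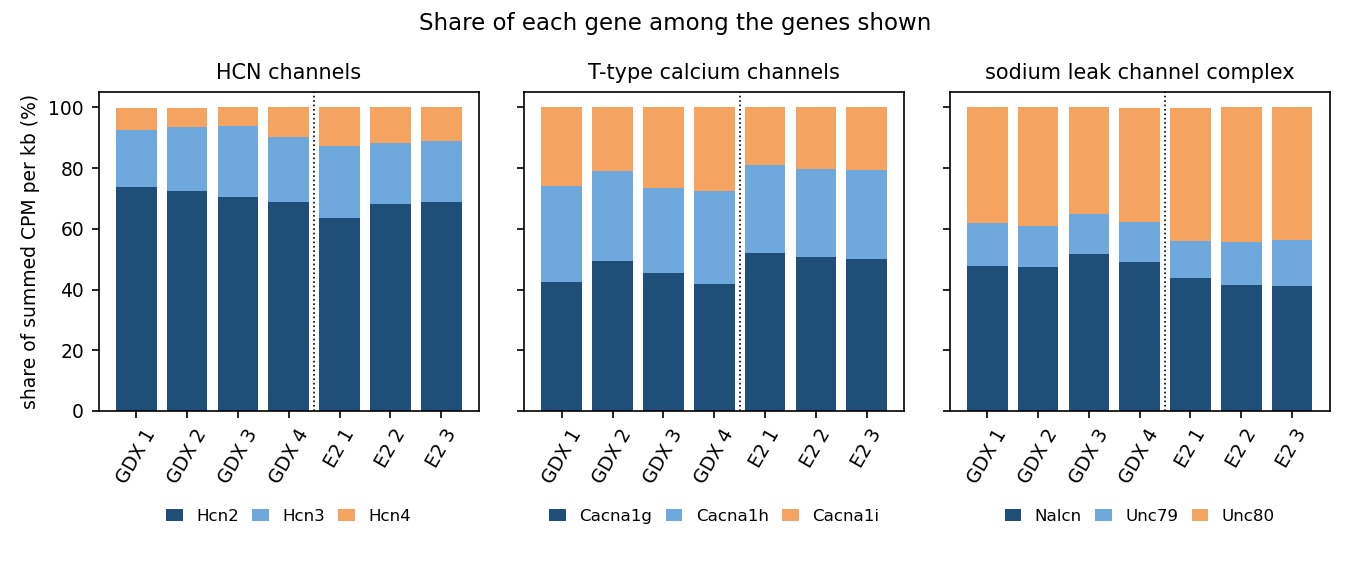
Share of each gene in the summed CPM per kb of the 3 genes taken from its class (y axis, percent), for the 4 GDX libraries left and the 3 E2 libraries right of the dotted line. Hcn2 and Cacna1g hold the largest share of their 3 genes in every library, and Nalcn (41.3% to 51.6%) and Unc80 (35.3% to 44.4%) are close.

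In the sodium leak complex, Nalcn and Unc80 were at similar levels per kb and Unc79 was lower. Nalcn held 47.8%, 47.3%, 51.6% and 49.1% of the class in GDX and 43.7%, 41.5% and 41.3% in E2. Unc80 held 35.3% to 39% in GDX and 43.6% to 44.4% in E2, and neither share overlapped between the groups. The ratio of Nalcn to Unc80 in CPM per kb was 1.26, 1.21, 1.46 and 1.3 in GDX and 0.998, 0.936 and 0.947 in E2. Neither gene passed its own test, and the ratio was not tested. Shares within a class sum to the whole, so the separations of 2 genes in a class are not independent.

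Which of Nalcn and Unc80 is higher depends on the length used. With the union of all annotated exons, which is 14.715 kb for Nalcn, Unc80 held 55.1% and Nalcn 32.5% on average. With coding length alone Nalcn held 47.2% and Unc80 41.3%. Among the genes taken from their classes, Hcn2 and Cacna1g remained the highest with each of the 3 lengths, at 62.2% to 70% and 44.9% to 47.4%. The authors' effective transcript lengths were not used here.

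**Figure D4:**
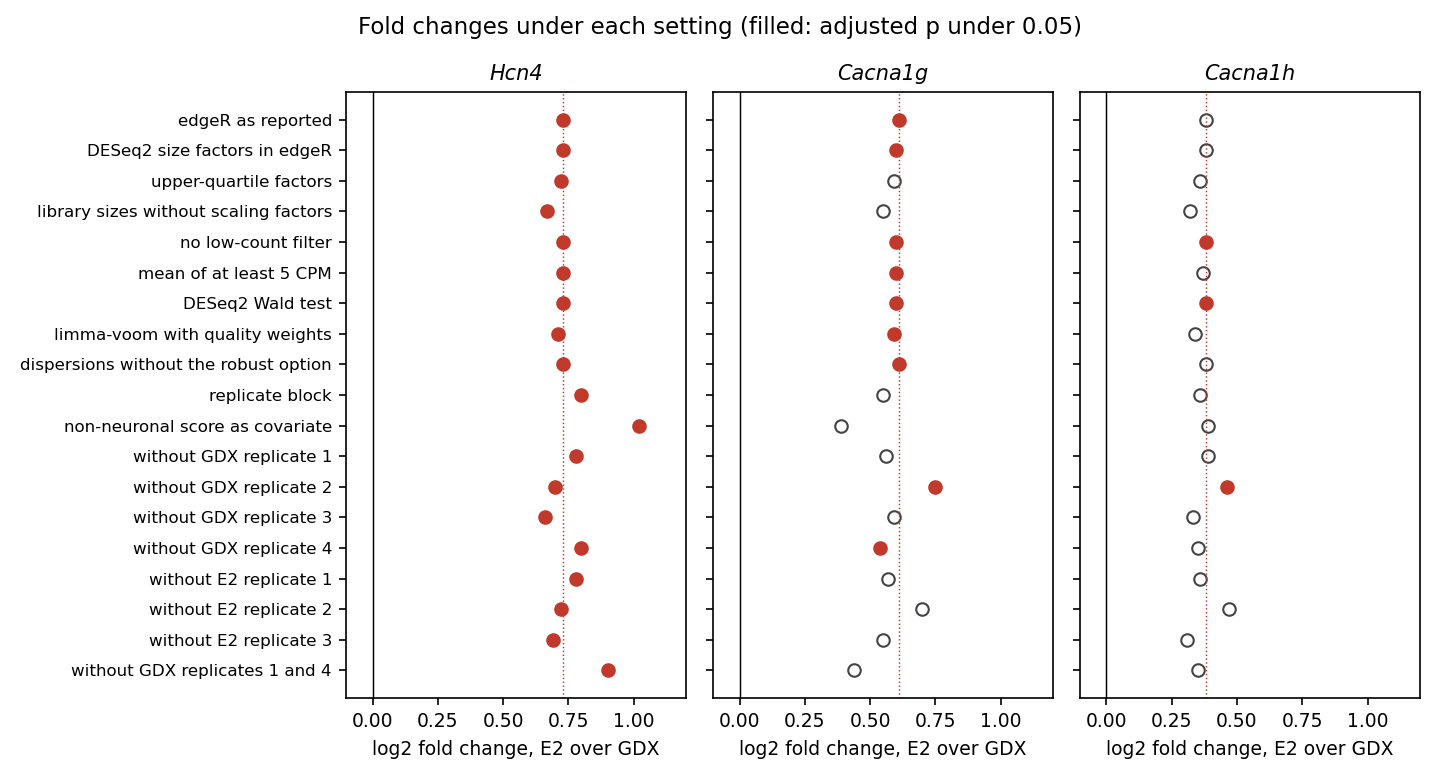
Log2 fold change, E2 over GDX (x axis), of Hcn4, Cacna1g and Cacna1h with the settings as reported and in 18 alternatives (y axis), filled in red where the adjusted p was under 0.05, with the dotted line at the reported value. Hcn4 is filled in every setting, Cacna1g in 8 of the 18 alternatives and Cacna1h in 3.

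Other genes of the currents that shape pacemaking and bursts were taken as 10 lists with 77 tested genes. Of these, 8 rose and none fell, and their median log2 fold change was 0.03. Of all 18282 genes tested, 467 (2.55%) rose and 243 (1.33%) fell. The count for the lists ranged from 2 higher with the non-neuronal score as a covariate, where 215 of all genes were higher and 92 lower, to 11 higher and 4 lower in the DESeq2 Wald test, where 675 were higher and 725 lower. Leaving out E2 replicate 3 gave 4 higher, and leaving out any of GDX replicate 1, GDX replicate 2 and E2 replicate 1 gave 5. With library sizes alone, 6 were higher and 3 lower.

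None of 7 tested HCN partners passed (median log2 fold change −0.23). Pex5l, whose product TRIP8b traffics HCN channels, was at 88.7 ± 7.5 CPM in GDX and 75.7 ± 5.23 CPM in E2 (SD, n = 4 and 3; edgeR adjusted p = 0.214), and Kctd3, which binds HCN3, at 79.9 and 73 CPM (adjusted p = 0.427). None of 9 adenylyl cyclases, which make cAMP, passed (median −0.05), among them Adcy1 (31.6 and 30.2 CPM, edgeR adjusted p = 0.88) and Adcy2 (96.2 and 85.4 CPM, adjusted p = 0.361).

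Of 9 genes listed as T-type channel partners and calcium channel auxiliary subunits, 1 rose and none fell (median −0.13). This was Cacna2d1, which encodes the gabapentin-binding subunit α2δ-1 of high-voltage calcium channels and went from 90.8 ± 12.2 to 148 ± 23.3 CPM (log2 fold change 0.7 ± 0.12, edgeR adjusted p = 0.00786). Of the 18 alternatives, only adding the non-neuronal score ended its call (adjusted p = 0.202), at a log2 fold change of 0.66. Klhl1, whose actin-binding product modulates T-type channels, was at 26.8 and 19.5 CPM and did not pass (log2 fold change −0.46, edgeR adjusted p = 0.0684). Usp5, which encodes a deubiquitinase of Cav3.2, was at 365 and 331 CPM (edgeR adjusted p = 0.306).

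Of 8 tested genes around NALCN, 2 rose and none fell (median 0.11). Fyn, which encodes a Src-family kinase, rose to 148 CPM in E2 against 118 CPM in GDX (log2 fold change 0.32, edgeR adjusted p = 0.0255), but 7 of 18 alternatives ended its call. Leaving out a single library did so for GDX replicates 1 and 2 (adjusted p = 0.0873 and 0.0778) and E2 replicates 2 and 3 (0.127 and 0.118). With the non-neuronal score as a term the log2 fold change of Fyn was 0.36 (adjusted p = 0.182). Calm2, a calmodulin gene, was at 1010 ± 127 and 1160 ± 45.6 CPM (SD, n = 4 and 3; edgeR adjusted p = 0.309). Fam155a, which encodes a further subunit of the NALCN complex, was at 105 ± 12.1 and 94.7 ± 4.91 CPM (edgeR adjusted p = 0.471).

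Of 7 calcium-activated and TRPC cation channel genes, which can carry plateau depolarizations, 2 rose and none fell (median 0.16). Trpc7 was higher in E2, at 39.9 against 27.8 CPM (log2 fold change 0.52 ± 0.11, edgeR adjusted p = 0.0217), a call lost in 7 alternatives that included each left-out E2 library (adjusted p = 0.073 to 0.135), GDX replicate 1 (0.0575) and GDX replicate 2 (0.054). With the non-neuronal score as a term its log2 fold change was 0.31 (adjusted p = 0.538). Trpm4 was at 12.4 and 13.9 CPM (edgeR adjusted p = 0.61) and Trpm5 at 0.275 and 0.356 CPM (adjusted p = 0.855).

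Of 9 genes of the A-type potassium current, which delays spikes, 2 rose and none fell (median 0.17). Kcnd3, a pore gene, was higher in E2, at 101 against 76.2 CPM (log2 fold change 0.4 ± 0.1, edgeR adjusted p = 0.0369) and Dpp6, an auxiliary subunit gene, was at 635 against 488 CPM (0.38 ± 0.07, adjusted p = 0.0113). Leaving out GDX replicate 1 (adjusted p = 0.0646), GDX replicate 2 (0.0883) or any E2 library (0.0638 to 0.209) ended the Kcnd3 call, and leaving out E2 replicate 1 (0.0823) ended the Dpp6 call. With the non-neuronal score as a term, neither was called, while the log2 fold changes were 0.53 for Kcnd3 (adjusted p = 0.107) and 0.37 for Dpp6 (0.178). Kcnd3 shares 165 bp with the antisense gene Kcnd3os, which was at 0.361 and 0.417 CPM. Kcnd1 (11.1 and 10.4 CPM, edgeR adjusted p = 0.885) and Kcnd2 (60.4 and 71.4 CPM, adjusted p = 0.116) did not pass.

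Of 12 sodium channel and associated genes, 1 rose and none fell (median 0.11). This was Fgf12, which encodes an intracellular FGF that binds sodium channels and went from 86.7 to 114 CPM (log2 fold change 0.39 ± 0.07, edgeR adjusted p = 0.00986), a call lost without E2 replicate 3 (0.0654) and, at the same fold change of 0.39, with the covariate (0.151). Scn1a (51.4 and 55.1 CPM, edgeR adjusted p = 0.754) and Scn2a (163 and 183 CPM, adjusted p = 0.511) did not pass. None of 5 high-voltage calcium channel genes passed (median 0.14), with Cacna1a at 102 and 113 CPM (edgeR adjusted p = 0.457) and Cacna1b at 142 and 143 CPM (adjusted p = 0.97). None passed among 4 M-type potassium channel genes (median 0.09), with Kcnq3 at 54.5 and 43 CPM (adjusted p = 0.0787). The 7 genes of SK and BK potassium channels, which end bursts by an afterhyperpolarization, also held none that passed (median −0.05). Kcnn1 was at 6.12 and 6.74 CPM (edgeR adjusted p = 0.84) and Kcnn2 at 17.4 and 16.8 CPM (adjusted p = 0.911).

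**Figure D5:**
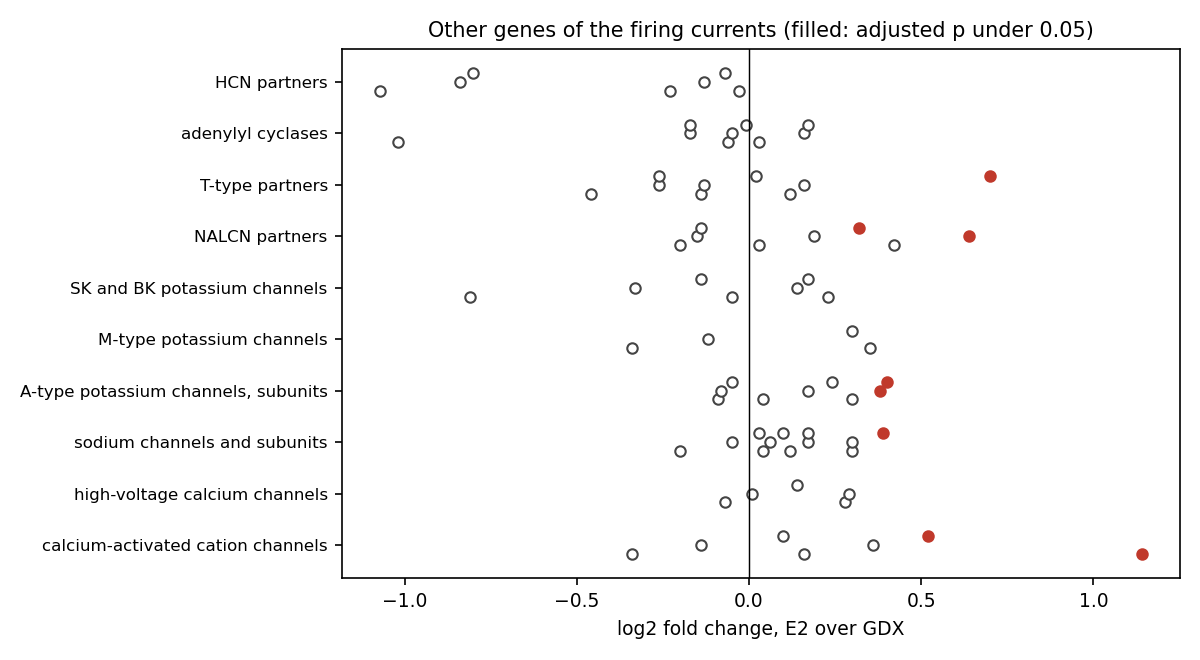
Log2 fold change, E2 over GDX (x axis), of each tested gene in 10 lists of firing currents (y axis, 1 row per list, points spread vertically for legibility), filled in red where the adjusted p over all genes was under 0.05. The 8 filled genes all lie above 0, the lowest of them Fyn at 0.32.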

How the data were processed

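The authors deposited expected counts per gene and library, of which 33.1% of non-zero values were not whole. Trimmomatic 0.38, STAR 2.6.0a, RSEM 1.3.0 and the build mm10 are named in the submitters' processing notes without roles. The sources used here do not state the annotation. Libraries were unstranded and polyA-enriched, per the labels' protocols. Symbols, coordinates and lengths came from GENCODE vM21 (GRCm38), which matched 55203 of 55384 identifiers.

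Counts were rounded, filtered with filterByExpr (minimum count 10, minimum total 15) and tested over all 7 libraries with edgeR 4.0.16 in R 4.3.3 (TMM, robust quasi-likelihood test, Benjamini-Hochberg adjustment over 18282 genes). The fit was tested on simulated data. Alternatives used DESeq2 1.42.0, limma 3.58.1 and other scalings, filters and libraries. The p-values weigh the difference between the groups against the spread between pools.

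The members and lists were chosen with earlier results of these data known. Genes named were the 9 members and, per list, up to 3 called genes with the largest change and the first 2 tested genes not called. Genes most like the highest member of each class and each called member were named by Pearson correlation. Some genes that this rule names are not reported here, though the counts for their lists include them.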

Additional observations from a re-analysis of the deposited data

Results flagged for a closer look

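Nalcn in GDX replicate 4 was at 180 CPM, far from the other GDX libraries at 149 to 151 CPM, with a gap of 0.918 of the group's range. Of the 21 quantities examined in this way (level and share of each gene and the sum of each class) it was the only one with such a library, and chance alone marks about 1 in 20. Without that library the log2 fold change of Nalcn was −0.14, and it was not called (edgeR adjusted p = 0.506). Over all genes tested, GDX replicate 4 also correlated less with the other GDX libraries (r = 0.963 to 0.972) than those did with each other (0.974 to 0.976). In the deposited column names, the number of GDX replicate 4 stands apart from the unbroken run of the other libraries. The labels name no batch, and a part of this in the results was not tested.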

How the results depend on the processing

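Over 18 alternatives, Hcn4 was called in all, Cacna1g in 8 and Cacna1h in 3, and the other 6 genes in none. The number of members called went from 2 to 1 with upper-quartile factors, library sizes alone, the replicate block, the non-neuronal covariate and without GDX replicates 1 and 4, and ranged from 1 to 3 with 1 library left out. The number of genes called went from 710 to 1609 without a low-count filter, 1400 in the DESeq2 Wald test, 1082 with limma-voom and 307 with the covariate, and from 364 to 974 with 1 library left out; the cause was not tested. The share of rises among called genes was 65.8%, against 52.2% with library sizes alone, 44.9% without a filter and 48.2% with DESeq2. The labels do not state whether equal replicate numbers pair libraries. Deviations from the group mean did not run together in same-numbered libraries (r = −0.0211, −0.0383 and −0.0551). So few values, each centred within its group, cannot decide whether the libraries were paired. In these deviations, no E2 library correlated best with the GDX library of its own number. The replicate block gave 612 called genes, Hcn4 at a log2 fold change of 0.8 (edgeR adjusted p = 0.00755) and Cacna1g at 0.55 (0.128).

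Values near 0 changed sign, none of them called. Hcn3 was −0.01 with library sizes alone and with the replicate block, −0.06 with the covariate and without GDX replicates 1 and 4, and −0.01 to 0.09 with 1 library left out. Hcn2 was 0.03 with the covariate and −0.15 to 0.08 with 1 library left out. Unc79 was −0.03 with library sizes alone and −0.03 to 0.08 with 1 library left out. By length, the mean share went from 69.4% to 62.2% with coding length for Hcn2, from 47.4% to 45.1% with all exons and 44.9% with coding length for Cacna1g, and from 46% to 32.5% with all exons for Nalcn.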

Other observations

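Log2 levels of the 9 genes were compared over the 7 libraries by Pearson's r, as a description in which the points share depth, scaling and treatment. Cacna1g and Cacna1h moved together most closely (r = 0.934), with GDX replicate 2 high for both and E2 replicate 2 the lowest E2 library for both. Hcn4 was nearest to Cacna1h (0.765), Unc80 (0.751) and Cacna1g (0.702), while Hcn2 and Hcn4 had an r of −0.0863. Nalcn ran against Hcn3 (−0.669), Cacna1g (−0.578) and Hcn2 (−0.575), and had an r of 0.096 with its partner Unc80.

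The genes most like Hcn2, Hcn4, Cacna1g and Nalcn were sought among 11577 further genes averaging 5 CPM or more, over the same 7 libraries. For Hcn4 they were Baiap2 (r = 0.991), Pdha1 (0.989) and Tspan5 (0.985), and Tspan5 rose from 41.8 to 64.2 CPM (edgeR adjusted p = 0.00318). For Cacna1g they were Prss36 (0.991), Zmynd11 (0.986) and Lrp8 (0.982), and for Hcn2 they were Metrn (0.973), Zfp423 (0.965) and Cdc25a (0.95). For Nalcn they were Slitrk4 (0.991), Fam120b (0.98) and Frs2 (0.978). With 7 libraries and so many genes, correlations of this size are a ranking of likeness and no more.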
